A study of Mus musculus with 16 samples.

Results

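The interferon response genes are transcripts that cells make more of when interferon, a secreted alarm protein, binds its receptor. The 42 genes described here were chosen by name, as rows of the deposited count table whose symbol is on a list of interferon-induced genes, out of 54532 genes in that table. All 42 were found, and each had counts in every one of the 16 libraries. The libraries were bulk RNA from female C57BL/6 mice, whose gonadal white fat was separated into preadipocytes (P, the adipocyte precursors of the stromal fraction) and mature adipocytes (A, the fat-storing cells). Control mice (C) were left with the dam until weaning on postnatal day 21, whereas stressed mice (MS) were separated from the dam daily on postnatal days 2 to 16 and weaned on day 17. On the high-fat diet (HF) preadipocytes had 4 libraries per treatment and mature adipocytes 3. The low-fat diet (LF) had 1 control and 1 stress library, both of preadipocytes. The labels give no age at collection, no antibodies for the magnetic sort and do not say whether each library is a different animal. The p-values therefore reflect variation among these libraries, which could be technical.

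Type I interferons signal through Ifnar1 and Ifnar2 and the kinases Jak1 and Tyk2, which activate Stat2. Stat2 and Irf9 act in the transcription factor complex ISGF3, which binds interferon-stimulated response elements (ISREs) in the promoters of antiviral genes such as the Ifit, Oas and Mx families. Interferon gamma signals through Ifngr1 and Ifngr2 to gamma-activated sites (GAS), and is the classical inducer of Irf1, the guanylate-binding proteins and the antigen-processing genes. In fat, interferon signalling has been studied as a part of the inflammation that comes with obesity.

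To show what the response elements look like in members that were well expressed here, promoter sequence from RefSeq (GRCm38.p6, the build of the deposited coordinates) was searched on both strands for exact matches. The ISRE core, in either orientation, was taken as GAAA and GAAA separated by 2 bases, and the GAS as TTCNNNGAA. RefSeq windows, from 250 bases before to 50 bases after a start, were matched for 33 of the 42 members (40 windows). An ISRE core lay in 19 of these windows (47.5%), against 3.44% of all 32851 promoter windows, and a GAS lay in 10 (25.0%), against 8.30%. By member, 18 held an ISRE core, 10 held a GAS, 5 held both and 10 held neither. All 6 GTPase genes had an ISRE core, as did 5 of the 8 matched IFIT and OAS genes, whereas none of the 3 antigen-processing genes and none of the 4 matched genes of less defined role had one. A match is a description of the letters and does not show that a factor binds there.

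The sequences below are from the 5 members with the highest mean CPM in high-fat preadipocytes (counts scaled to a common library total, a measure of read number that is not scaled for gene length and gives another order than FPKM) among those with an ISRE core before the start, together with Ifit1, which was chosen after its values were seen because it differed most between the low-fat libraries. They are written 5′ to 3′ on the strand of the gene, with the ISRE cores that begin before the start in capitals, and stop at exons annotated in GENCODE M21. Where the match itself lies in such an exon, 30 bases around it are shown. Ddx58, by CPM also among the 6 highest of the members with a core, is not shown because its match lies after the start. The stretches are chr3:142620594-142620623 (plus strand), chr11:48871428-48871457 (minus), chr10:128270248-128270497 (plus), chr8:71537473-71537722 (minus), chr7:104465194-104465443 (minus) and chr19:34640744-34640870 (plus).
Gbp2: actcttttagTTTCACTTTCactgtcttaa
Irgm1: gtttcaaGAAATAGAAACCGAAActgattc
Stat2: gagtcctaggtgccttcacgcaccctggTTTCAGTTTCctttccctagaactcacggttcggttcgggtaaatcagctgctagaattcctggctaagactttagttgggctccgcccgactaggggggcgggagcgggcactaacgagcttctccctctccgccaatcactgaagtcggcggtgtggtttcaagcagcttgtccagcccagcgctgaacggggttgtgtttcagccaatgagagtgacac
Bst2: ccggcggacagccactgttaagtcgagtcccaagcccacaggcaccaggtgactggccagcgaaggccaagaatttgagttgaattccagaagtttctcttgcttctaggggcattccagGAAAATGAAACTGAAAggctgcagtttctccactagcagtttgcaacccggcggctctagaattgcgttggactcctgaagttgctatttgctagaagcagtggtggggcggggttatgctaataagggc
Trim30a: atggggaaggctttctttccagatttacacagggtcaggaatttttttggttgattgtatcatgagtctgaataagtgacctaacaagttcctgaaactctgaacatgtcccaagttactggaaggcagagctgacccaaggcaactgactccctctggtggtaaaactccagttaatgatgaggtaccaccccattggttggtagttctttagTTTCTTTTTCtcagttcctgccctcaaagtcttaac
Ifit1: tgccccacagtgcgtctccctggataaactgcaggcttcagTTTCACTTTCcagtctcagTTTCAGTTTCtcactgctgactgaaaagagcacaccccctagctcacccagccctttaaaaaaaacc

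The matches began 59 bases before the RefSeq start in Gbp2, 222 in Stat2 and 36 in Trim30a. Irgm1 and Bst2 each carried 2 overlapping cores, beginning 30 and 24 bases before the start of Irgm1 and 130 and 124 before that of Bst2. Ifit1 carried 2 separate cores, beginning 104 and 85 bases before its start.

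Members lie on 14 chromosomes, several in gene clusters. On GRCm38, in the deposited coordinates, the Ifit genes run from Ifit2 at 34550694 to Ifit1 ending at 34650009 on chromosome 19, and the 4 Gbp genes from 142493978 to 142638008 on chromosome 3. Psmb9, Tap1 and Psmb8 lie between 34181988 and 34201454 on chromosome 17, in the major histocompatibility complex. Of the 42 members, 17 overlap another gene of the table and 13 of these overlap one on the opposite strand (Psmb9 and Tap1 overlap each other). The strand setting of the counting is not given in the sources used here, so reads of such pairs cannot be told apart. Ifit3 and Ifit3b are near-identical copies, and counting could have split their reads, so both values are uncertain. Mx2 is annotated as a polymorphic pseudogene, and the Mx1 allele of C57BL/6 mice is known to be defective.

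Levels of 1 gene between libraries are given as CPM. Library totals ran from 14182130 to 23368821 counts, and the members took 21751 to 64874 counts of a library. High-fat control preadipocyte libraries 1 and 3 held almost the same counts, which differed in 6.93% of genes against 43.9 to 78.6% in the other 17 pairs within a group (chi-square per gene 4.02). They are averaged as 1 sample in group means, where n is then 3. Marker genes fitted the fraction labels: the 10 mature adipocyte markers summed to 21209 to 64033 CPM in high-fat adipocyte libraries and 495 to 834 CPM in preadipocyte libraries, and the 10 preadipocyte markers to 835 to 1695 CPM and 5558 to 11201 CPM. Both fractions also held macrophage transcripts, with 14 markers summing to 1579.7 to 8744 CPM in preadipocyte and 1986 to 8266 CPM in adipocyte libraries. Stress preadipocyte libraries 3 and 4 stood apart, with mean macrophage marker levels of 8.47 and 8.62 on the log2 CPM scale against 5.95 to 7.60 in the other 6 high-fat preadipocyte libraries. In bulk RNA, fewer cells of a type and less RNA per cell cannot be told apart.

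Levels of different genes were compared as the deposited FPKM, which are scaled for gene length. In high-fat preadipocytes the highest members were Irf1, a transcription factor induced by interferon gamma (mean FPKM 77.8 over 8 libraries), Bst2, the virus-tethering membrane protein tetherin (67.6), and Ifi27, a small interferon-induced membrane protein (56.2). The lowest were Mx1 (1.65), Oas3 (1.02) and Ifi44 (0.669). In mature adipocytes Ifi27 led with a mean FPKM of 371 over 6 libraries, followed by Bst2 (86.7) and Irf1 (66.8), and Mx2 (0.897), Mx1 (0.771) and Ifi44 (0.704) were lowest. In the 2 low-fat preadipocyte libraries Irf1 (121), Bst2 (64.05) and Gbp2, a guanylate-binding protein (53.5), had the highest mean FPKM, and Mx1 (1.81), Oas3 (0.543) and Ifi44 (0.538) the lowest. Neighbours in this order overlapped: over the 8 high-fat preadipocyte libraries Irf1 ranged from 51.1 to 112 FPKM and Bst2 from 52.5 to 97.5. In mature adipocytes the lowest Ifi27 value, 219 FPKM, was above the highest value of Irf1, 122, and of Bst2, 115.

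**Figure D1:**
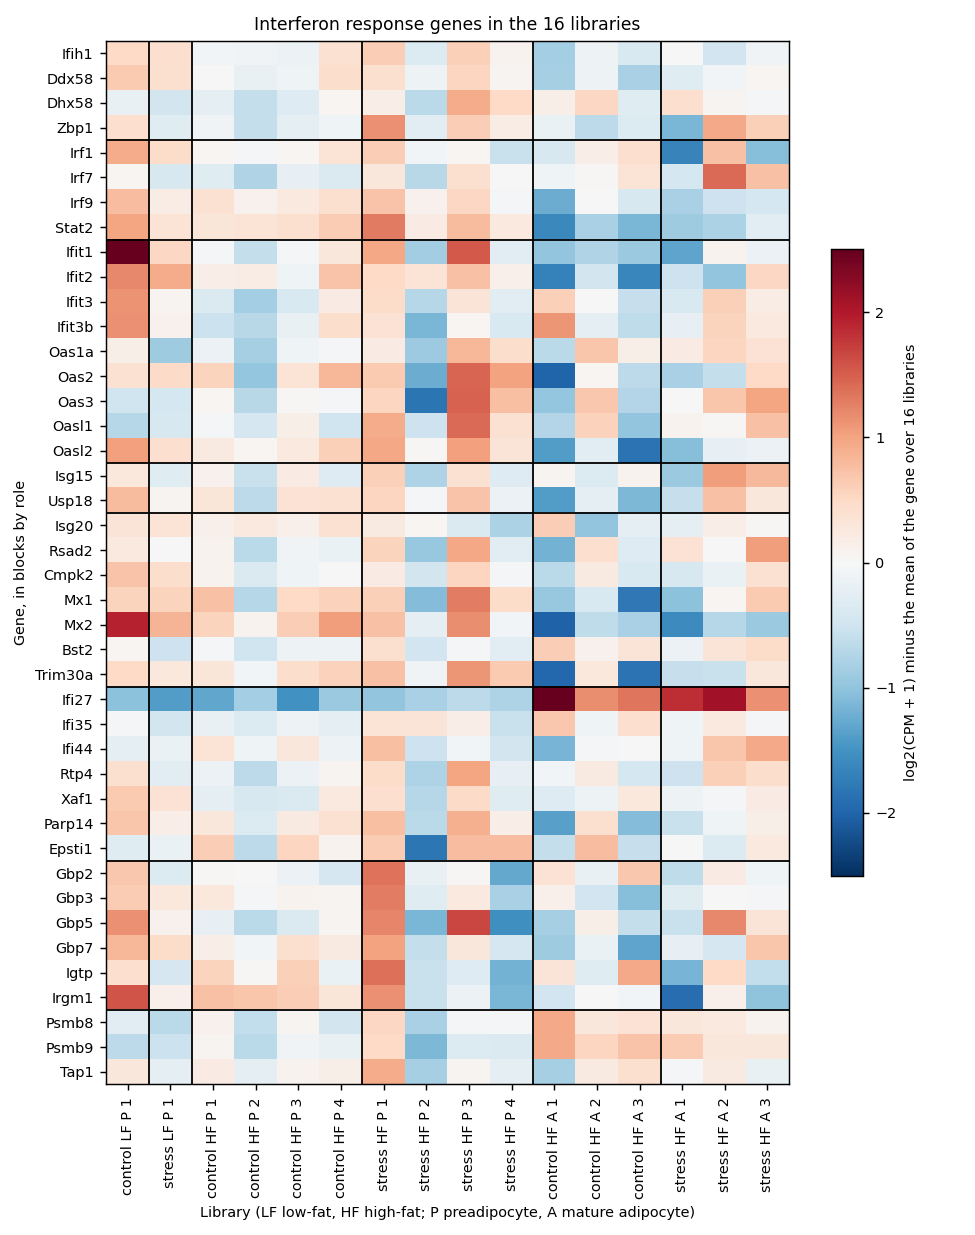
Each row is 1 of the 42 genes in blocks by role, each column 1 of the 16 libraries, and the colour is log2(CPM + 1) minus the gene's mean over all libraries, limited to 2.5 either way. Ifi27 is high in the 6 mature adipocyte columns, Stat2 and Mx2 are low there, and the low-fat control library and stress preadipocyte libraries 1 and 3 are high over most rows.

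The comparison of mature adipocytes with preadipocytes on the high-fat diet (14 libraries, adjusted for early life treatment) gave the clearest differences among the members. Ifi27 was 6.99-fold higher in mature adipocytes. Psmb9, Psmb8, Irf7 and Bst2 were also higher, but the call of Psmb8 was lost in 19 of 23 alternative analyses. Those of Irf7 and Bst2 were lost in 12 each. Stat2 and Irf9, both of ISGF3, were lower, as were Mx2, Oasl2, Ifit1, Ifit2, Trim30a and the RNA sensors Ddx58 (RIG-I) and Ifih1 (MDA5). By edgeR's quasi-likelihood test with Benjamini-Hochberg adjustment over all 18194 genes tested, 14 of the 42 members passed an adjusted p of 0.05, 5 higher (11.9%) and 9 lower (21.4%) in mature adipocytes, and 28 did not pass. Among all genes tested 27.7% were higher and 34.8% lower, 62.5% in all, so the members were called less often than genes at large, a difference that was not tested. Their median log2 fold change was -0.14, against -0.24 over all genes, and ran from -0.23 without control adipocyte library 2 to 0.007 without stress adipocyte library 1 (without stress preadipocyte libraries 1, 2 and 3 in turn -0.03, -0.21 and -0.08). With DESeq2-type (RLE) size factors the median of all genes moved to -0.34 and the members' split became 2 higher and 12 lower, and with DESeq2 2 and 13.

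Among the genes that were higher, Ifi27 was at 55.2 to 99.9 CPM (median 84.99) in the 8 preadipocyte libraries and 351 to 999 CPM (median 487) in the 6 mature adipocyte libraries (2.81 ± 0.25 on the log2 scale, adjusted p = 1.35e-07). Every mature adipocyte library was above every preadipocyte library, which was also so for 17.4% of all genes tested. No other member separated the fractions in that direction. Psmb9 and Psmb8 encode subunits of the immunoproteasome, the form of the proteasome that cuts peptides for display to T cells. Psmb9 was at 8.99 to 29.9 CPM (median 17.3) in the 8 preadipocyte libraries and 25.5 to 40.96 CPM (median 31.9) in the 6 mature adipocyte libraries (0.82 ± 0.22 on the log2 scale, adjusted p = 0.00444). Psmb8 was at 19.8 to 51.6 CPM (median 34.5) in the 8 preadipocyte libraries and 37.9 to 69.9 CPM (median 43.7) in the 6 mature adipocyte libraries (0.52 ± 0.21 on the log2 scale, adjusted p = 0.0454), and this call was lost in 19 of 23 alternative analyses, with adjusted p from 0.0112 to 0.521. It held, of the 14 single omissions, only without control preadipocyte 1, stress preadipocyte 1, control adipocyte 2 or stress adipocyte 3. Both ranges overlapped between the fractions. Tap1, which carries the cut peptides into the endoplasmic reticulum and overlaps Psmb9 in the genome, did not pass (-0.07 ± 0.24). Irf7, the factor that drives interferon production, was at 24.5 to 56.1 CPM (median 35.2) in the 8 preadipocyte libraries and 31.02 to 115 CPM (median 48.4) in the 6 mature adipocyte libraries (0.62 ± 0.25 on the log2 scale, adjusted p = 0.0375). Bst2 was at 46.5 to 87.5 CPM (median 59.99) in the 8 preadipocyte libraries and 59.1 to 101 CPM (median 82.7) in the 6 mature adipocyte libraries (0.44 ± 0.17 on the log2 scale, adjusted p = 0.0306). The calls of Irf7 and Bst2 were each lost in 12 of the 23 alternatives, including RLE size factors, with adjusted p up to 0.193 and 0.336. Single omissions that ended both calls were control preadipocyte 2, stress preadipocyte 2 and stress adipocytes 2 and 3. Stress preadipocyte 4 and control adipocyte 3 ended that of Irf7, and control adipocyte 1 that of Bst2.

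Stat2 was the clearest of the genes that were lower, at 56.4 to 121 CPM (median 63.4) in the 8 preadipocyte libraries and 15.4 to 40.4 CPM (median 26.5) in the 6 mature adipocyte libraries (-1.48 ± 0.20 on the log2 scale, adjusted p = 1.49e-05). Mx2, a dynamin-like GTPase of the antiviral Mx family, was at 6.73 to 19.1 CPM (median 12.5) in the 8 preadipocyte libraries and 1.23 to 4.77 CPM (median 3.93) in the 6 mature adipocyte libraries (-1.86 ± 0.35 on the log2 scale, adjusted p = 2.71e-04). Oasl2, a relative of the oligoadenylate synthetases, was at 46.1 to 93.1 CPM (median 55.1) in the 8 preadipocyte libraries and 11.9 to 40.5 CPM (median 29.2) in the 6 mature adipocyte libraries (-1.21 ± 0.26 on the log2 scale, adjusted p = 8.95e-04). In these 3 genes every mature adipocyte library was below every preadipocyte library, as in 18.8% of all genes tested. With Ifi27 they were the 4 members whose call held in all 23 alternatives. Ifit2 was at 16.02 to 29.2 CPM (median 20.9) in the 8 preadipocyte libraries and 4.63 to 25.2 CPM (median 9.94) in the 6 mature adipocyte libraries (-1.07 ± 0.30 on the log2 scale, adjusted p = 0.00621), and Ifit1 at 13.2 to 74.2 CPM (median 24.1) in the 8 preadipocyte libraries and 9.35 to 26.5 CPM (median 13.4) in the 6 mature adipocyte libraries (-0.93 ± 0.34 on the log2 scale, adjusted p = 0.0265). IFIT proteins bind foreign RNA and block its translation. Trim30a, a TRIM-family protein, was at 39.3 to 90.99 CPM (median 59.4) in the 8 preadipocyte libraries and 10.03 to 50.97 CPM (median 27.7) in the 6 mature adipocyte libraries (-1.03 ± 0.33 on the log2 scale, adjusted p = 0.014). For these 3 the highest adipocyte library lay inside the preadipocyte range. Irf9 (-0.85), Ddx58 (-0.49) and Ifih1 (-0.47) also passed, with smaller log2 differences. Leaving out one library ended the call of Ifit1 (stress preadipocyte 3 or stress adipocyte 1), Ddx58 (control adipocyte 1) and Ifih1 (control preadipocyte 4, stress preadipocytes 1 and 3, control adipocyte 1 or stress adipocyte 2). Over all alternatives the highest adjusted p was 0.225 for Ifit1, 0.261 for Ddx58 and 0.187 for Ifih1.

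The other members did not pass, and their values spread to both sides of 0. Among the IFIT and OAS genes Ifit3 and Ifit3b were at 0.29 and 0.51, and Oas1a, Oas3, Oasl1 and Oas2 at 0.27, -0.02, -0.22 and -1.01, so 3 of the 9 genes in this group passed as lower and none as higher, beside 34.8% and 27.7% of all genes. None of the 6 GTPases, which attack the membranes of compartments that hold pathogens, passed: Gbp2, Gbp3, Gbp5 and Gbp7 were at 0.04, -0.45, -0.13 and -0.50, and Igtp and Irgm1 at -0.14 and -0.77. Isg15, a ubiquitin-like modifier, and Usp18, the protease that removes it, were at 0.29 and -0.59. The exonuclease gene Isg20 was at -0.04, Rsad2 (viperin) at 0.13, its genomic neighbour Cmpk2, a mitochondrial nucleotide kinase, at -0.14, and Mx1 at -1.10. Ifi35, Ifi44, Rtp4, Xaf1, Parp14 and Epsti1, whose roles are less defined, ranged from -0.59 (Parp14) to 0.29 (Ifi35). The sensors Dhx58 (LGP2) and Zbp1, a sensor of Z-form nucleic acids, and the factor Irf1 were at 0.14, -0.13 and -0.17.

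Marker genes of other cells differed between the fractions as well. All 8 B cell markers, all 7 plasmacytoid dendritic cell markers and 13 of 14 T and NK cell markers had lower means in mature adipocyte libraries, where they summed to 78.7 to 143 CPM, 59.1 to 157 CPM and 10.4 to 17.1 CPM, against 147 to 281 CPM, 158 to 331 CPM and 12.8 to 101 CPM in preadipocyte libraries. In contrast, 11 of 12 endothelial markers had higher means in the adipocyte libraries (506 to 2549 CPM, against 206 to 894 CPM). So had 7 of 8 mural markers (568 to 1347 CPM, against 94.4 to 467 CPM). All 8 mesothelial markers (36.4 to 141 CPM, against 137 to 1227 CPM) and all 6 erythroid markers (425 to 1418 CPM, against 254 to 2432 CPM) had lower means there. Of the dendritic cell and neutrophil markers 7 of 8 each were lower, and of 14 macrophage markers 6 were higher and 8 lower. Among these lists only Klk1, a plasmacytoid list gene, was at 0 in all adipocyte libraries, and none was at 0 in all preadipocyte libraries. The part of these cells in the member differences was not tested. The count of called members fell to 6 (2 higher, 4 lower) without control adipocyte libraries 1 and 3, which detected the fewest genes (18091 and 15344), and to 9 in control libraries alone and 5 in stress libraries alone.

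**Figure D2:**
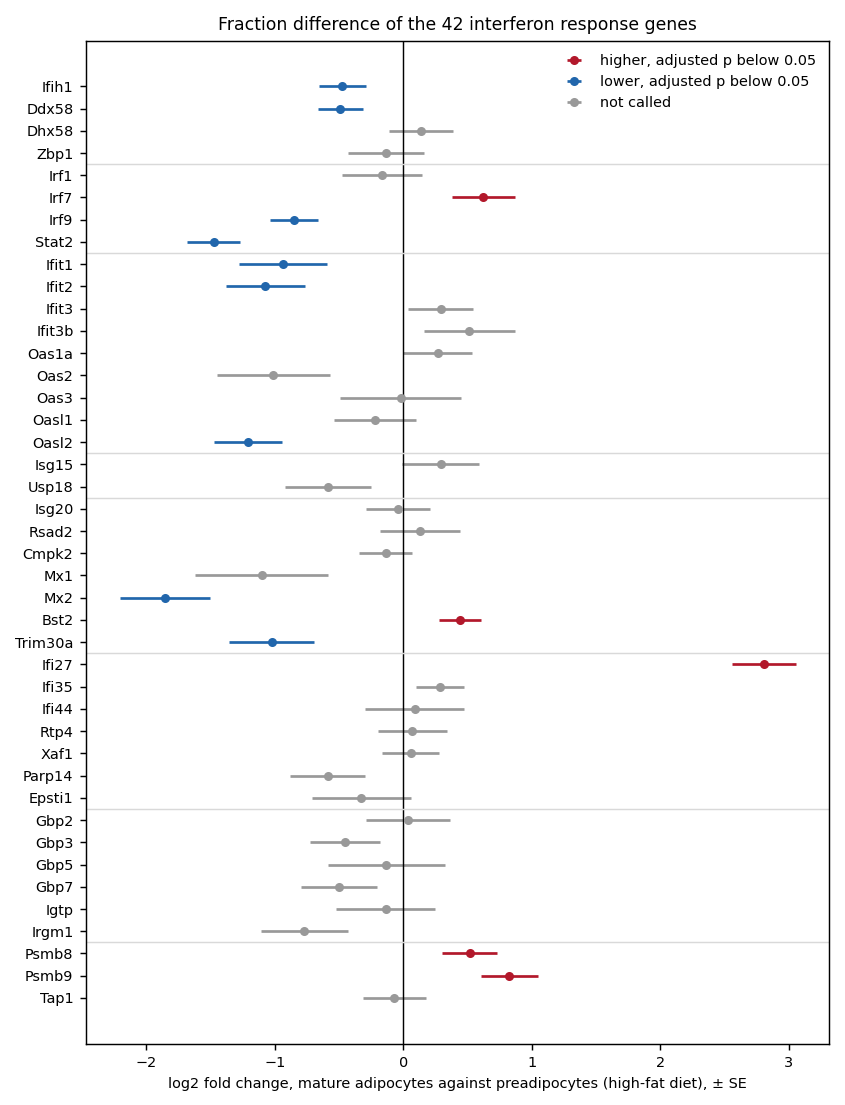
Points are log2 fold changes of the 42 members, mature adipocytes against preadipocytes on the high-fat diet, with bars of 1 standard error, in blocks by role. Ifi27 stands at 2.81, and Mx2, Stat2 and Oasl2 at -1.86, -1.48 and -1.21, while all 6 GTPases are grey (not called).

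The rest of the pathway was read from lists chosen by function, whose counts of called genes stand beside the 27.7% higher and 34.8% lower of all genes and were not tested against them. Interferon transcripts themselves were close to absent: of 12 ligand genes the highest count in any library was 61 for Ifng (2.43 CPM) and 13 for Ifnb1, and Ifna1 and Ifna4 were at 0 in all 16 libraries. Of 9 receptor and kinase genes 4 were lower in mature adipocytes and none higher. The interferon gamma receptor chain Ifngr1 was at -0.51 ± 0.16 (adjusted p = 0.0123), and the kinases Jak2 and Jak1 were at -1.56 and -0.90 and the lambda receptor Ifnlr1 at -1.73. Ifnar1 (-0.35 ± 0.19), Ifnar2 (0.32 ± 0.15) and Ifngr2 (0.05 ± 0.18) did not pass. Of 11 further transcription factors of the pathway 2 were higher, among them Irf3 (0.98), and 3 lower, among them Irf4 (-1.13) and Stat3 (-1.04). Of 13 further sensors and adaptors 6 were lower, led by Mb21d1 (cGAS, -1.69), the kinase Ikbke (-1.02) and Tmem173 (STING, -0.77), and 1 was higher, Mavs (1.46), the mitochondrial adaptor of the RNA sensors. Of 9 inhibitors of the pathway 4 were lower, led by Socs3 (-1.30) and Ptpn2 (-1.21), and 2 higher, Ptpn11 (0.88) and Irf2bp1 (0.77).

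Among 84 other interferon-induced genes tested, 15 were higher and 26 lower, in neither direction a larger share than the 27.7% and 34.8% of all genes. The largest log2 differences were Apol6 (6.23 ± 0.29), an apolipoprotein L gene, Ifi27l2a (3.55 ± 0.26), a relative of Ifi27, and the proteasome activator Psme2 (1.79 ± 0.19) upward, and Ifi205 (-3.96 ± 0.30), Ms4a4b (-3.84 ± 0.74) and Ifi204 (-3.03 ± 0.31) downward. Genes named next were picked out after their values were seen. Besides Psme2, among the other immunoproteasome and antigen-display genes of the list, these were higher in mature adipocytes: Psmb10 (1.30), Psme1 (0.97), Tapbp (0.62), B2m (1.39), H2-K1 (0.70), H2-D1 (0.88) and H2-T22 (1.42). Tap2 (0.03) and H2-T23 (0.06) did not pass, nor did the member Tap1. Ifi203 (-2.94), Ifi211 (-2.99), Ifi207 (-1.63) and Ifi213 (-1.44), of the same DNA-binding family as Ifi204 and Ifi205, were lower. Genes of this family, and the H2 genes, are close to one another in sequence, so reads may have been split between them.

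Early life stress in high-fat preadipocytes (4 stress and 4 control libraries) changed no member past the threshold. Of the 42 log2 fold changes 34 were above 0 and 8 below, with a median of 0.22, against 0.007 over all 16810 genes tested. No member was called (smallest adjusted p = 0.8), and 0% of all genes were, with 2 members and 1010 genes at an unadjusted p under 0.05. These counts were 1 and 496 with the near-identical control libraries 1 and 3 summed into 1, and 12 and 1645 without stress library 2. DESeq2 called 72 genes of all, none of them a member. Zbp1 was at 15.6, 10.6, 13.9 and 15.3 CPM in control libraries 1 to 4 and 37.9, 13.5, 26.04 and 18.8 in stress libraries 1 to 4 (0.79 ± 0.31, adjusted p = 0.8 by edgeR). Stress libraries 1, 3 and 4 were above all controls and stress library 2 was inside their range. Oasl1 was at 13.4, 10.01, 15.3 and 9.47 CPM in controls and 27.2, 9.37, 38.3 and 18.3 under stress (0.95 ± 0.41, adjusted p = 0.8 by edgeR), again with stress library 2 the exception. Isg20 was at 15.1, 16.6, 15.3 and 18.2 CPM in controls and 16.3, 14.4, 10.6 and 7.60 under stress (-0.44 ± 0.21, adjusted p = 0.8 by edgeR), with stress library 1 inside the control range. No member's groups were apart, whereas stress was wholly above control in 1.22% and wholly below in 1.39% of all genes.

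The stress libraries lay on both sides of the controls rather than apart from them. Of the 42 members, 22 had their highest value among the 8 libraries in stress library 3 and 18 in stress library 1, while 25 had their lowest in stress library 2 and 9 in stress library 4. The mean log2 CPM of all members was 5.36, 4.06, 5.26 and 4.52 in stress libraries 1 to 4 and 4.78, 4.31, 4.73 and 4.83 in controls 1 to 4. Left out one at a time, stress library 2 took the members' median to 0.41 (40 above 0) and stress library 3 to 0.11 (33 above 0), stress library 1 to 0.14 and control library 2 to 0.14, and no member was called in any of these. Without stress libraries 3 and 4, the pair rich in macrophage markers, the median was 0.14 with 31 above 0.

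Which stress library was highest differed between groups of members, shown here for genes chosen after their values were seen. Stress library 1 had the highest GTPase mean: Gbp2 was at 289, 97.97, 114 and 45.2 CPM in stress libraries 1 to 4 and 114, 110.1, 101 and 82.7 in controls, with stress library 4 the lowest of the 8. Irgm1 was at 174, 52.6, 70.5 and 35.04 CPM under stress and 130.2, 127, 119.8 and 96.99 in controls, again highest in stress library 1 and lowest in stress library 4. Stress library 3 had the highest IFIT and OAS mean: Ifit1 was at 49.4, 13.2, 74.2 and 20.5 CPM in stress libraries and 24.02, 16.04, 24.1 and 30.4 in controls. Oas2 was at 29.6, 7.25, 52.7 and 38.2 CPM under stress and 27.8, 8.98, 23.8 and 33.9 in controls, and Oas3 at 8.49, 0.847, 17.1 and 10.1 under stress and 5.81, 3.04, 5.67 and 5.44 in controls, both lowest in stress library 2. Gbp5 was high in both stress libraries 1 and 3, at 47.8, 8.43, 64.8 and 6.21 CPM across the stress libraries against 17.2, 12.1, 15.2 and 20.96. The GTPase mean minus the IFIT and OAS mean, on the log2 CPM scale, was 1.96, 1.68, 0.64 and 0.02 in stress libraries 1 to 4 and 1.64, 1.93, 1.57 and 1.08 in controls, so stress libraries 3 and 4 lay below all controls. These are the libraries richest in macrophage markers, and 12 of the 14 macrophage markers had a higher mean under stress (1698 to 4615 CPM summed in controls, 1579.7 to 8744 CPM under stress, none at 0 throughout a group). T and NK cell markers, the cells that are the usual source of interferon gamma, were highest in stress library 1 (mean log2 CPM 2.12) and lowest in stress library 2 (-0.48), against 0.55 to 1.70 in controls. Ifng itself, at low counts, was at 1.47, 0.14, 0.10 and 0.43 CPM in stress libraries 1 to 4 and 2.43, 1.03, 1.06 and 0.31 in controls. Of the 14 T and NK cell markers 12 had a lower mean under stress. All 12 endothelial markers (413 to 894 CPM summed in controls, 206 to 476 CPM under stress), all 7 plasmacytoid dendritic cell markers and 7 of 8 B cell markers also had lower means under stress, none of them at 0 throughout a group. So had all 8 mesothelial markers (233 to 1227 CPM and 137 to 617 CPM) and all 6 erythroid markers (1451 to 2381 CPM and 254 to 2432 CPM). Of the mural and dendritic cell markers 6 of 8 each were lower. Of 8 neutrophil markers 7 had higher means under stress (21.5 to 29.6 CPM and 6.83 to 44.9 CPM), with Ly6g at 0 in all controls. The part of these cells in the member values was not tested.

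**Figure D3:**
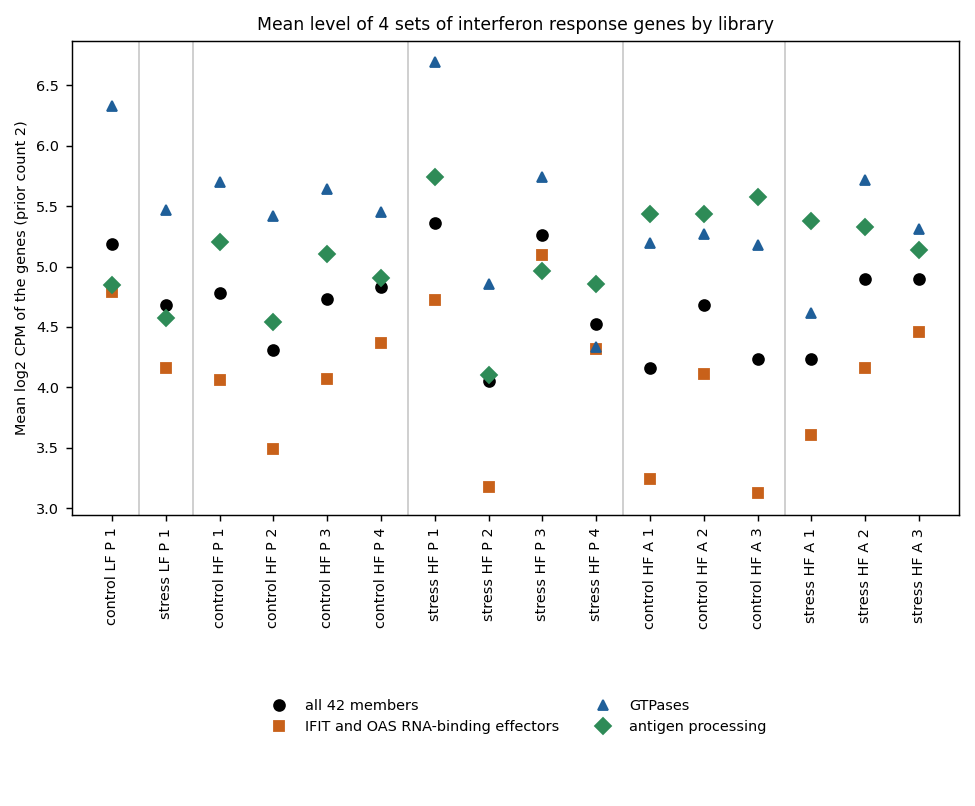
Points are the mean log2 CPM, in each of the 16 libraries, of all 42 members, of the 9 IFIT and OAS genes, the 6 GTPases and the 3 antigen-processing genes. In high-fat preadipocytes under stress the all-member mean runs from 4.06 to 5.36, around the controls (4.31 to 4.83), and the IFIT and OAS mean is close to the GTPase mean in stress library 4.

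In mature adipocytes (3 stress and 3 control libraries on the high-fat diet) no member was called either (smallest adjusted p = 1 by edgeR), and 0% of 14485 genes were. No member and 417 of all genes had an unadjusted p under 0.05, and DESeq2 called 19 genes, none a member. The median was 0.25 (27 members above 0, 15 below), against -0.009 over all genes. Usp18 was at 2.56, 6.94 and 3.35 CPM in control libraries 1 to 3 and 5.31, 14.7 and 10.5 under stress (1.22 ± 0.56, adjusted p = 1 by edgeR). Gbp7 was at 15.9, 27.2 and 11.6 CPM in controls and 26.4, 22.6 and 49.7 under stress (0.83 ± 0.44, adjusted p = 1 by edgeR). Ifit2 was at 4.63, 12.3 and 4.90 CPM in controls and 11.7, 8.16 and 25.2 under stress (1.03 ± 0.55, adjusted p = 1 by edgeR). In all 3 genes the groups overlapped through control library 2, the highest control. Without that library the members' median was 0.49, and 10 members had an unadjusted p under 0.05, as had 1481 of all genes in place of 417, but no member was called.

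The 3 antigen-processing genes, described with Irf1 and Irf7 after their values were seen, had log2 differences below 0 in this fraction. Psmb8 was at 69.9, 43.8 and 45.9 CPM in control and 43.6, 42.4 and 37.9 in stress libraries (-0.40 ± 0.32, adjusted p = 1 by edgeR), the only member whose groups were apart, with every stress library below every control, though the nearest values were 43.6 and 43.8 CPM. This arrangement was met in 2.93% of all genes, and stress wholly above control in 4.13%. Psmb9 was at -0.38 and Tap1 at -0.03 on the log2 scale. Irf1, a regulator of such genes, overlapped between the groups, at 217, 324 and 383 CPM in controls and 90.3, 482 and 137 under stress. Irf7 was highest in stress library 2, at 31.02, 115 and 70.97 CPM in stress and 38.8, 43.3 and 53.5 in control libraries. Stress library 1 was the lowest of its group for 31 of the 42 members. Of the 14 macrophage markers 12 had lower means under stress (2282 to 8266 CPM summed in controls, 1986 to 5317 CPM under stress). So had 8 of 10 mature adipocyte markers (21209 to 64033 CPM and 21704 to 45948 CPM). All 6 erythroid markers (425 to 537 CPM and 427 to 1418 CPM), 9 of 12 endothelial markers (506 to 2549 CPM and 1144 to 2531 CPM) and 6 of 8 B cell markers (78.7 to 119 CPM and 118 to 143 CPM) had higher means under stress. None of these markers was at 0 throughout a group. Of 8 neutrophil markers 6 had higher means under stress (13.8 to 21.3 CPM and 10.4 to 26.4 CPM). Ly6g was at 0 in all controls and Ngp at 0 in all stress libraries. Of the mural and dendritic cell markers 6 of 8 each had lower means under stress. The part of these cells in the member values was not tested.

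A test of whether the stress difference itself differed between mature adipocytes and preadipocytes (interaction, 14 libraries) called no member and 0% of 18194 genes, with 0 members and 1223 genes at an unadjusted p under 0.05 and 23 genes called by DESeq2. The smallest p-values among members were those of Ifi35 (interaction -0.67 ± 0.35, adjusted p = 0.763 by edgeR), Usp18 (1.06 ± 0.62) and Ifi44 (1.22 ± 0.72). Ifi44 had stress differences of -0.13 ± 0.38 in preadipocytes and 1.09 ± 0.62 in mature adipocytes, and Ifi35 of 0.32 ± 0.19 and -0.36 ± 0.34. The receptors did not pass in either fraction: under stress Ifnar1, Ifnar2, Ifngr1 and Ifngr2 were at 0.17, 0.17, 0.11 and 0.27 in preadipocytes and at -0.14, -0.52, -0.02 and -0.22 in mature adipocytes. The interaction was -0.68 ± 0.24 for Ifnar2 (adjusted p = 0.735 by edgeR), the smallest p of these 4 genes.

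**Figure D4:**
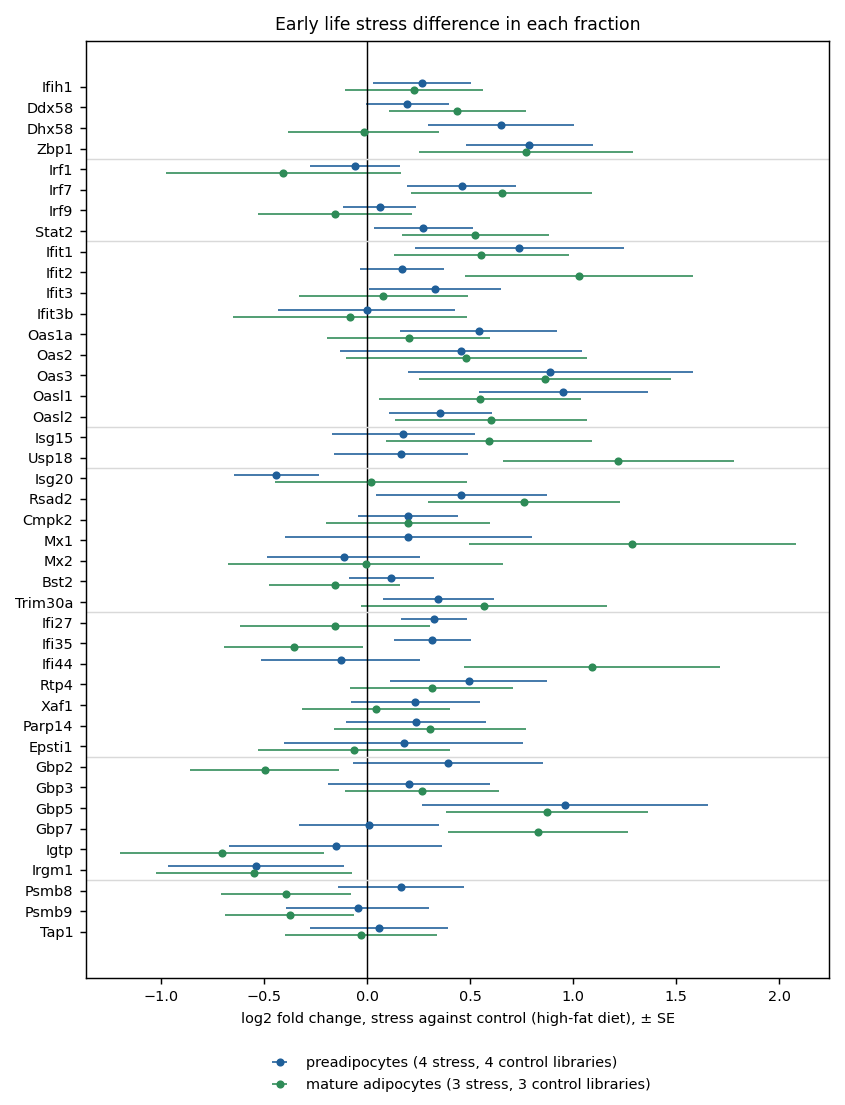
Points are log2 fold changes, stress against control on the high-fat diet, for the 42 members in preadipocytes (blue) and mature adipocytes (green), with bars of 1 standard error. Most blue points lie right of 0 (34 of 42), and no point of either colour passed the adjusted threshold.

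The diet comparison set the 8 high-fat against the 2 low-fat preadipocyte libraries, adjusted for early life treatment, so low-fat values rest on 1 library per treatment. No member was called, and 0% of 18713 genes were, though 5 members and 2983 genes had an unadjusted p under 0.05 and DESeq2 called 611 genes, none a member. With the near-identical control libraries 1 and 3 summed into 1, 2 members and 2360 genes had an unadjusted p under 0.05. The members' median was -0.12 (15 above 0, 27 below), against 0.02 over all genes. Ifit2 was at 40.9 CPM in the low-fat control and 33.9 in the low-fat stress library, and at 16.02 to 29.2 CPM (median 20.9) on the high-fat diet (-0.74 ± 0.22, adjusted p = 0.203 by edgeR). It was the only member whose diets were apart, with high-fat wholly below low-fat as in 8.3% of all genes, while high-fat was wholly above in 7.05%. Irf1 was at 548 and 397 CPM on the low-fat and 195 to 441 CPM (median 297) on the high-fat diet (-0.62 ± 0.23, adjusted p = 0.251 by edgeR). Ifit1 was at 148 CPM in the low-fat control library and 36.05 in the low-fat stress library, against 13.2 to 74.2 CPM (median 24.1) on the high-fat diet (-1.63 ± 0.67, adjusted p = 0.288 by edgeR). Only the low-fat control library was outside the high-fat range, and without it the difference was 0.11. Without that library the members' median turned to 0.27 (29 above 0), and without the low-fat stress library it was -0.41 (7 above 0). Of the high-fat libraries, omitting control 2 or stress 2 gave -0.04 each, stress 1 -0.18 and stress 3 -0.24. Mx2 (-0.91) and Cmpk2 (-0.58) were the other members at an unadjusted p under 0.05, and are named here after their values were seen.

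The receptor genes had log2 differences above 0, higher on the high-fat diet, without passing: Ifngr1 was at 0.33 ± 0.11 and Ifngr2 at 0.64 ± 0.26 (adjusted p = 0.236 and 0.282 by edgeR), Ifnar1 at 0.16 and Ifnar2 at 0.22. The 10 mature adipocyte markers all had higher means on the high-fat diet, with sums apart (289 to 489 CPM on the low-fat and 495 to 834 CPM on the high-fat diet), and so had all 8 mural markers (102 to 233 CPM and 94.4 to 467 CPM) and all 8 neutrophil markers (12.9 to 14.7 CPM and 6.83 to 44.9 CPM, with Ly6g at 0 on the low-fat diet). All 6 erythroid markers (2799.7 to 4033 CPM and 254 to 2432 CPM) and 9 of 10 preadipocyte markers (9790.2 to 11254 CPM and 5558 to 11201 CPM) had lower means on the high-fat diet. Dendritic cell markers, higher in 6 of 8, summed to 60.3 to 63.2 CPM and 72.7 to 184 CPM. B cell markers, higher in 7 of 8, summed to 188 to 249 CPM and 147 to 281 CPM. Mesothelial markers, also higher in 7 of 8, summed to 291 to 303 CPM and 137 to 1227 CPM. Macrophage markers were higher in mean on the high-fat diet in 13 of 14 (1652 to 1977 CPM summed on the low-fat diet, 1579.7 to 8744 CPM on the high-fat diet), and endothelial markers lower in 10 of 12 (452 to 805 CPM and 206 to 894 CPM), with no other marker of these lists at 0 throughout a group. Their part in the member values was not tested.

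**Figure D5:**
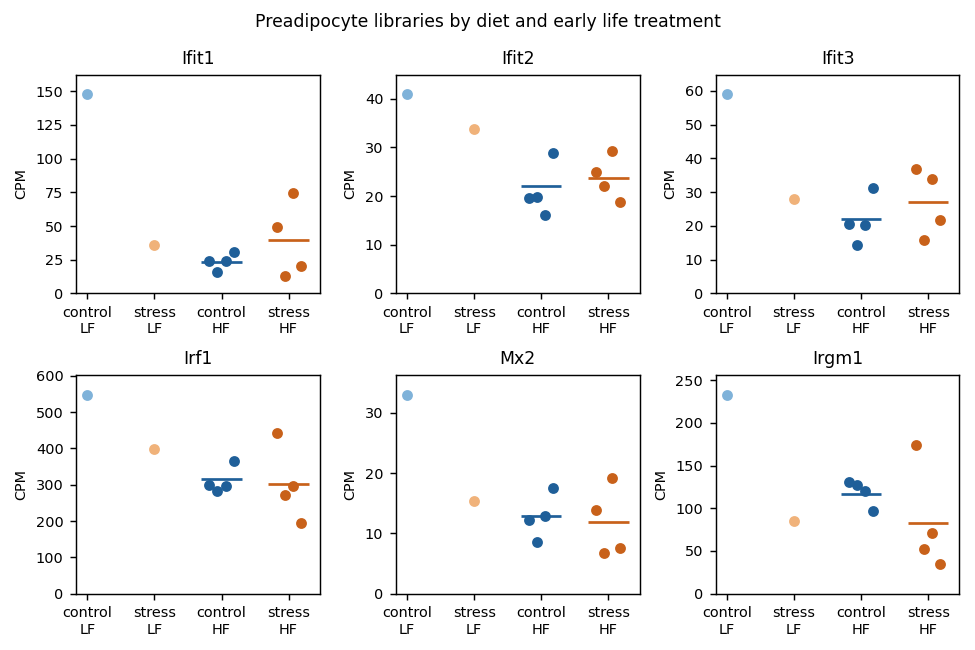
Points are CPM of 6 members in each of the 10 preadipocyte libraries, by early life treatment and diet, and lines are means of the high-fat groups (control libraries 1 and 3 counted as 1). The low-fat control library is the highest point in all 6 panels, at 148 CPM for Ifit1 and 233 CPM for Irgm1. The 6 were chosen for display, and other members differ. Gbp2 was at 178 CPM in that library and up to 289 CPM in high-fat preadipocytes, and Gbp5 at 44.9 and up to 64.8 CPM.

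The 2 low-fat libraries compare stress with control with 1 library each, so there is no replicate check and no test, and the intervals below (95%, exact binomial) cover counting error only. Of 39 members with at least 10 CPM in either library, 34 were lower in the stress library and 5 higher, with a median log2 ratio of -0.46, against -0.09 over the 9480 genes that met the same minimum. At least 2-fold lower were 8 members, against 0.77% of those genes, and no member was 2-fold higher. Scaled by library size alone, without TMM factors, 2 members were at least 2-fold lower. Ifit1 had 3566 counts in the control and 787 in the stress library, or 148 and 36.05 CPM, a log2 ratio of -2.03 (-2.15 to -1.92). Irgm1 was at 233 and 85.3 CPM (-1.45, -1.52 to -1.37), and Ifit3b at 15.8 and 7.19 (-1.12, -1.41 to -0.86). The other genes at least 2-fold lower were Ifit3, Oas1a, Mx2, Gbp2 and Gbp5, with log2 ratios from -1.10 (Mx2) to -1.02 (Gbp2). Oasl1 (0.36, 0.08 to 0.65), Epsti1 (0.16, -0.10 to 0.41) and Psmb9 (0.12, -0.11 to 0.35) had the highest ratios. On the high-fat diet Ifit1, with its pair of ISRE cores printed above, had the opposite sign in preadipocytes (0.74 ± 0.51), and whether the stress difference depends on diet was not tested.

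The pair also differed in other cells' markers. T and NK cell markers summed to 36.5 CPM in the control and 19.6 in the stress library (12 of 14 lower), and B cell markers to 249 and 188 (8 of 8 lower). Endothelial markers summed to 452 and 805 CPM (11 of 12 higher), and macrophage markers to 1652 and 1977 (12 of 14 higher). Mature adipocyte markers summed to 289 and 489 CPM (9 of 10 higher) and mural markers to 102 and 233 (8 of 8 higher). Preadipocyte markers summed to 11254 and 9790.2 CPM (10 of 10 lower), and erythroid markers to 2799.7 and 4033 (5 of 6 higher). No marker of these 8 lists was at 0 in either library, and their part in the ratios was not tested.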

How the data were processed

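RNA of 16 libraries was analysed from gene count and FPKM tables that the authors deposited, 1 column per library. The deposited raw counts are read counts per Ensembl gene, per the file headers and values, and the FPKM deposited by the authors are fragment counts scaled for gene length and library total. STAR 2.6.1d, DESeq2 1.20.0 and edgeR 3.24.3 and the builds mm10 and GRCm38 are named per the submitters' processing notes, while counter, strand setting and annotation were not given in the sources used here. The members and all gene lists were chosen with earlier results of these data known, so no list is independent evidence.

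Counts were fitted over all genes with edgeR 4.0.16 in R 4.3.3 (TMM, filterByExpr, robust quasi-likelihood F test, Benjamini-Hochberg threshold 0.05), and a standard error is the log2 fold change divided by the square root of F. CPM use TMM factors over all 16 libraries, and log2 CPM a prior count of 2. Fits keep both near-identical libraries. Named with statistics were members past the threshold (the 6 largest per direction where over 12), otherwise the 3 with the smallest p, and in the low-fat pair the 3 largest ratios per direction at 10 CPM or more. Pathway genes were named where they passed, at most 3 per direction and list, and some are not reported here. The scripts were tested on simulated data. DESeq2 1.42.0, other scaling and filters, the pair summed, replicate blocks and omission of each library were alternatives. A count of 0 allows up to 3 counts, for counting error only.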

Additional observations from a re-analysis of the deposited data

Results flagged for a closer look

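Epsti1, an interferon-induced gene of less defined role, was at 21.7, 3.15, 23.9 and 23.8 CPM in stress high-fat preadipocyte libraries 1 to 4, so that library 2, at 3.15 CPM, stood far from the other 3 by Dixon's criterion. No other of the 42 members met it in that group. No other group had enough samples for the criterion, with the near-identical control libraries counted as 1. Chance alone gives such a gap in about 1 of 20 tests, so 1 among 42 is not above that rate.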

How the results depend on the processing

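Direction was followed singly for called members and, in comparisons where none was called, for the 3 with the smallest p. These kept their direction under the alternatives run, except Ifit1 in the diet comparison. It was 0.11 without the low-fat control library (range over single omissions -2.57 to 0.11). Over all 42 members, 4 changed sign between cell types with DESeq2, and 6 without control adipocyte libraries 1 and 3. For stress in preadipocytes 11 changed sign without stress libraries 3 and 4. Of the 14 calls between cell types 10 were lost in some alternative. Besides those given above, Irf9 was lost in control libraries alone (adjusted p 0.0509), Psmb9 in stress libraries alone (0.158), Ifit2 in 2 alternatives (up to 0.172) and Trim30a in 3 (up to 0.098). Of the medians given above, that of diet changed sign without the low-fat control library and that of the cell types without stress adipocyte library 1. DESeq2 called more genes than edgeR: 72 for stress in preadipocytes, 19 for stress in mature adipocytes, 23 for the interaction and 611 for diet, against 0 each, and the cause was not tested. Without a filter on low counts edgeR called 51 genes for stress in mature adipocytes and 1 for diet. Leaving out each library gave 0 to 9 genes for stress in mature adipocytes (9 without control library 2), 0 to 3 for the interaction (3 without control adipocyte library 2) and 0 to 57 for diet (57 without high-fat control library 4). None of these calls was a member. For the cell types, 9 members were called in control and 5 in stress libraries alone and 6 without control adipocyte libraries 1 and 3, all with fewer samples, and 10 to 16 over single omissions. Deviations of same-numbered libraries had correlations from -0.38 to 0.44. Between the fractions, 1 of 3 control and 1 of 3 stress preadipocyte libraries went best with the adipocyte library of their number. Between treatments, 2 of 4 control preadipocyte and 0 of 3 control adipocyte libraries went best with the stress library of their number. These values cannot settle whether libraries share an animal, which the labels do not say. Numbers were not taken as pairs in the main fits. The replicate block gave 1 gene for stress in preadipocytes and 8 members for the cell types. In the low-fat pair, scaling by library size alone left 2 members at least 2-fold lower.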
